A study of Zea mays with 6 samples.

Results

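Transcript levels of 4 maize (Zea mays) genes of chlorophyll synthesis were followed in leaves of wild-type plants (WT) and of an edited line, KO1, labelled as a knockout of ZmGA20ox3. The 4 genes were taken by identifier out of 44320 rows in the deposited table. Zm00001d023536 is listed in the definition of the set as oy1 (oil yellow1), the I subunit of magnesium chelatase. Zm00001d001820, Zm00001d032576 and Zm00001d013937 are listed there as protochlorophyllide reductases (POR). The deposited table holds identifiers without names, and the RefSeq gene table used here, which has 1 gene under the name oy1, does not pair it with the deposited identifier, so these names were not checked further.

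Each genotype had 3 leaf libraries, described as biological replicates, from greenhouse plants at the V8 vegetative stage under normal growth, with no stress imposed. The cultivar of all libraries is labelled KN5585, but the wild type is written KN5855 in the description of growth, and the edited plants are of 1 line. ZmGA20ox3 encodes a gibberellin 20-oxidase, an enzyme of the synthesis of gibberellins, the hormones that promote stem elongation. Its own level and leaf marker genes were not analysed here, because no name is paired with an identifier. The labels give no leaf position, light condition or hour of harvest for single libraries.

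Chlorophyll is made in plastids from protoporphyrin IX, the last intermediate shared with heme. Magnesium chelatase, built from the subunits I, D and H, commits protoporphyrin IX to chlorophyll by inserting magnesium at the cost of ATP, and the I subunit is an ATPase. Maize plants with a semidominant oy1 allele have yellow-green leaves. Protochlorophyllide reductase acts later and needs light to reduce protochlorophyllide to chlorophyllide, so flowering plants do not green in the dark. In Arabidopsis the reductase genes are regulated differently: the PORA transcript is abundant in dark-grown seedlings and falls in the light, whereas PORB and PORC transcripts are present in green leaves. Which of the maize genes corresponds to which of these was not analysed here.

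The values are TPM (a read abundance scaled by transcript length and to the same total in each library), so levels of different genes in a library can be compared. All 4 genes were among the 20990 genes tested, those with at least 1 TPM in at least 3 of the 6 libraries. Between genotypes 3301 genes, 15.7% of those tested, passed at a limma adjusted p under 0.05. Those higher in KO1 were 9.87% of tested genes and those lower 5.86%. This background was not stable: the count was 6838 with library weights, 778 when WT replicate 3 was left out, 1314 when WT replicate 1 was, 1482 when KO1 replicate 1 was and 1856 when KO1 replicate 2 was. Quantile normalization gave 1656 higher and 1738 lower. None of the 4 genes (0 of 4) passed in either direction. The TPM ranges of the groups overlapped for all 4 genes, while 40.5% of tested genes had groups that did not overlap. Sequencing depth is unknown from TPM, and in whole leaves fewer cells of a type and less RNA per cell cannot be told apart.

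**Figure D1:**
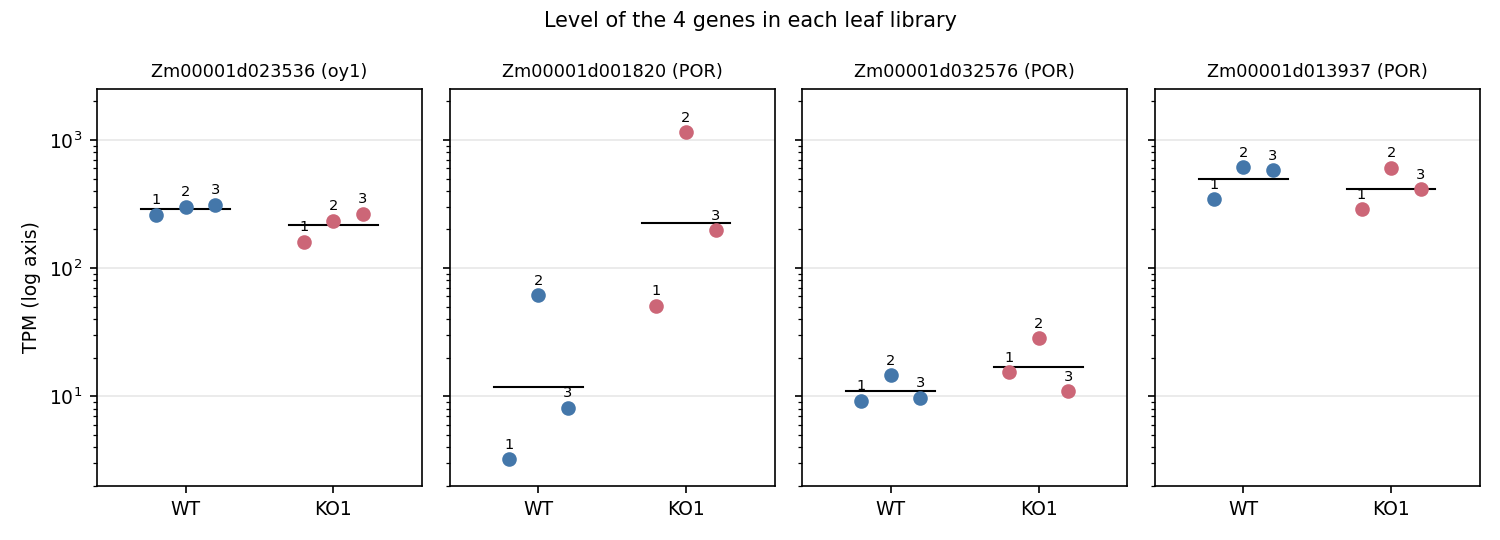
TPM on a log axis for each of the 4 genes in the 3 WT libraries (blue) and the 3 KO1 libraries (red). Numbers beside the points are replicate numbers and black lines are geometric means. Zm00001d001820 spans 3.23 to 1144 TPM, while Zm00001d023536 stays between 160 and 312 TPM.

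The chelatase gene Zm00001d023536 was an abundant leaf transcript that varied little among WT libraries and more among KO1 libraries. It had 262, 300 and 312 TPM in WT replicates 1 to 3 and 160, 234 and 266 TPM in KO1 replicates 1 to 3. KO1 libraries lay lower, with KO1 replicate 1 the lowest, and the groups overlapped only in that KO1 replicate 3 was just above WT replicate 1. KO1 exceeded WT in 1 of the 9 pairings of a KO1 with a WT library. The mean was 291 ± 26.3 TPM over WT libraries and 220.2 ± 54.4 TPM over KO1 libraries (SD, n = 3 each), 1.32-fold lower in KO1. On the log2(TPM + 1) scale the difference was -0.43 ± 0.23 (SE; limma adjusted p = 0.231), with a 95% interval from -0.97 to 0.11. The interval holds both a fall of this size and more, and a small rise. Without KO1 replicate 1 the difference was -0.22 (limma adjusted p = 0.453).

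In each library oy1 ranked in the top few percent of leaf transcripts. Its percentile among tested genes was 97.4, 98.0 and 98.1 in WT and 95.8, 97.1 and 97.7 in KO1. Among WT libraries 75.9% of tested genes had an SD of log2(TPM + 1) at least as large, whereas among KO1 libraries 35.7% did.

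Zm00001d013937 was the main reductase transcript of WT leaves. It had 343, 612 and 581 TPM in WT replicates 1 to 3 and 288, 606 and 411 TPM in KO1 replicates 1 to 3. The groups overlapped broadly, with replicate 1 lowest in both genotypes and replicate 2 highest in both. The mean was 512 ± 147 TPM over WT and 435 ± 161 TPM over KO1 libraries (SD, n = 3 each). The difference on the log2(TPM + 1) scale was -0.26 ± 0.35 (SE; limma adjusted p = 0.643), with a 95% interval from -1.10 to 0.59. This was within the spread between replicates, and the direction rested on 1 library: without KO1 replicate 1 the difference was 0.0088. The gene ranked at percentile 97.9 or above among tested genes in all 6 libraries.

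Zm00001d032576 was a minor reductase transcript in both genotypes. It had 9.19, 14.6 and 9.70 TPM in WT replicates 1 to 3 and 15.3, 28.2 and 10.9 TPM in KO1 replicates 1 to 3. KO1 exceeded WT in 8 of the 9 pairings, and WT replicate 2 above KO1 replicate 3 was the exception. Means were 11.2 ± 2.99 TPM in WT and 18.2 ± 9.01 TPM in KO1 (SD, n = 3 each), a ratio of 1.63. The difference on the log2(TPM + 1) scale was 0.58 ± 0.36 (SE; limma adjusted p = 0.300), with a 95% interval from -0.28 to 1.44, which includes 0. This difference was larger than the SD of log2(TPM + 1) among WT libraries, 0.34, and smaller than that among KO1 libraries, 0.66. Without KO1 replicate 2, the highest library, it was 0.22 (limma adjusted p = 0.622).

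Zm00001d001820 was the gene of the 4 with the largest differences, both between genotypes and among libraries of the same genotype. It had 3.23, 61.3 and 8.11 TPM in WT replicates 1 to 3, and 50.7, 1144 and 197 TPM in KO1 replicates 1 to 3. Replicate 2 was the highest and replicate 1 the lowest library in each genotype. KO1 exceeded WT in 8 of the 9 pairings, the exception being KO1 replicate 1, which lay below WT replicate 2. The median was 8.11 TPM in WT and 197 TPM in KO1. Means were 24.2 ± 32.2 TPM in WT and 464 ± 593 TPM in KO1 (SD, n = 3 each), and each SD exceeded its mean, so the ratio of the means, 19.2, is poorly determined.

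On the log2(TPM + 1) scale Zm00001d001820 was 4.08 ± 1.35 higher in KO1 (SE), with a 95% interval from 0.85 to 7.32 that is not adjusted for the number of genes. The unadjusted limma p was 0.021 and the limma adjusted p was 0.085, so the difference did not pass the threshold. A difference in this direction at least as large was found for 99 tested genes, itself included, of which 94 passed. Whether it passed depended on the libraries, their weights and the terms in the fit. With library weights, where WT replicate 3 took a weight of 8.53 and 6838 genes passed, the difference was 4.06 and passed (limma adjusted p = 0.019). Without WT replicate 2 it was 5.19 and passed (limma adjusted p = 0.045). Without KO1 replicate 2 it was 2.92 (limma adjusted p = 0.183). With both of these libraries left out, an alternative chosen after seeing the data, it was 4.03 and passed (limma adjusted p = 0.030).

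**Figure D2:**
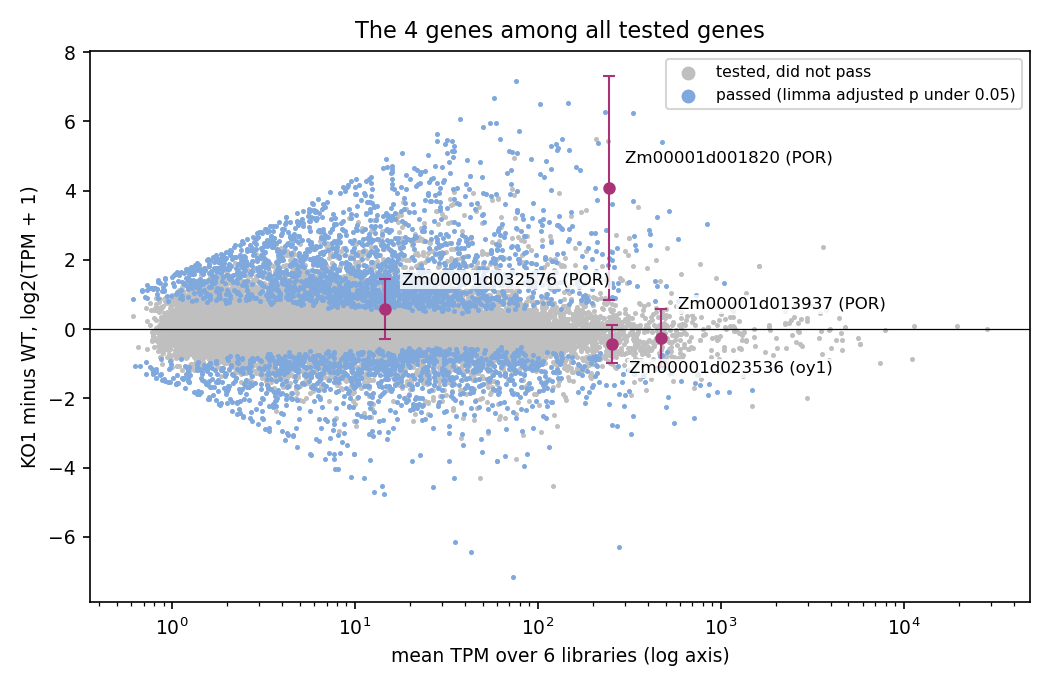
Difference between KO1 and WT on the log2(TPM + 1) scale against mean TPM on a log axis, for 20990 tested genes (blue, passed the limma threshold; grey, did not pass). Purple points with bars are the 4 genes with 95% intervals; Zm00001d001820 lies at 4.08 with an interval from 0.85 to 7.32, and the intervals of the other genes include 0.

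The range of Zm00001d001820 within a genotype was as wide as its difference between genotypes. The highest library was 19.0-fold above the lowest in WT and 22.6-fold in KO1. The corresponding folds were 1.78 and 2.11 for Zm00001d013937, 1.59 and 2.59 for Zm00001d032576, and 1.19 and 1.66 for oy1. Few tested genes varied so much among replicates: 0.710% had an SD of log2(TPM + 1) at least as large in WT, and 0.372% in KO1. The place of the transcript in the library moved accordingly, from percentile 26.1 of tested genes in WT replicate 1 to 87.2 in WT replicate 2, and from 83.9 in KO1 replicate 1 to 99.6 in KO1 replicate 2. In KO1 replicate 2 it was the transcript ranked 86 of all rows.

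**Figure D3:**
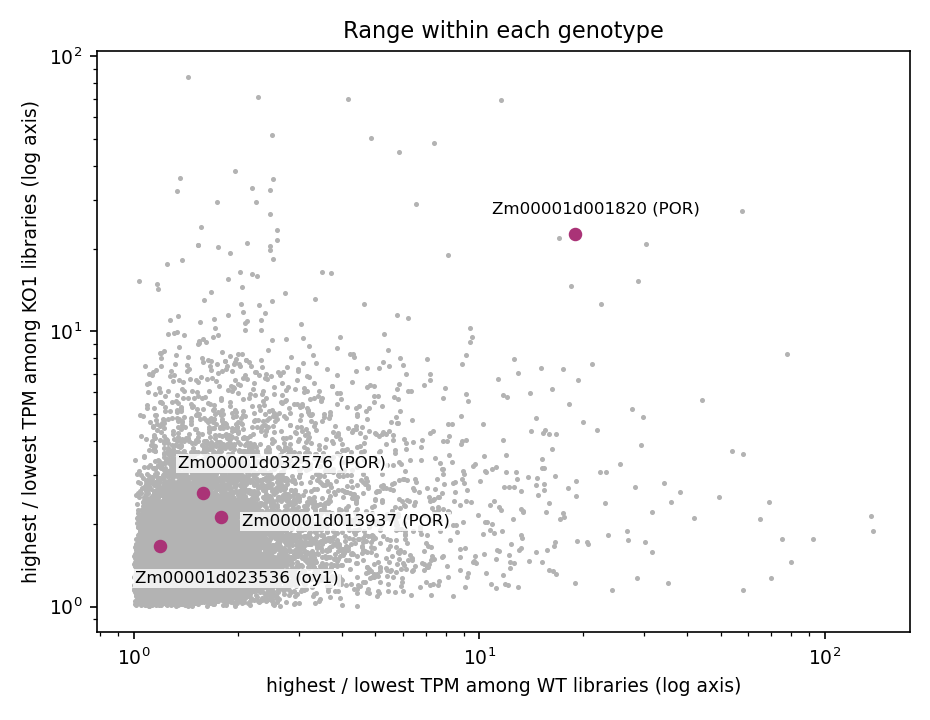
Highest over lowest TPM among the 3 WT libraries (horizontal) and among the 3 KO1 libraries (vertical), both on log axes, for the 17378 tested genes that reached 1 TPM in each of the 6 libraries. Purple points are the 4 genes; Zm00001d001820 lies at 19.0 and 22.6, while the other 3 lie below 3 on both axes.

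The order of the 4 transcripts differed among libraries through Zm00001d001820. Zm00001d013937 was the highest of the 4 and oy1 the second in all 3 WT libraries, in KO1 replicate 1 and in KO1 replicate 3. In KO1 replicate 2 the order was Zm00001d001820, Zm00001d013937, oy1 and Zm00001d032576. Zm00001d001820 was the lowest of the 4 in WT replicates 1 and 3 and the third in WT replicate 2, KO1 replicate 1 and KO1 replicate 3. Over WT libraries the means of Zm00001d001820 and Zm00001d032576 differed by less than the SD of the former, and over KO1 libraries the mean of Zm00001d001820 could not be placed above or below those of Zm00001d013937 and oy1.

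In the reductase pool, the share of Zm00001d001820 did not overlap between the genotypes, whereas the level of each of the 4 genes did. For the TPM of single genes, groups that do not overlap were common in these libraries, at 40.5% of tested genes. How common they are for shares of a sum was not determined. Zm00001d001820 contributed 0.909%, 8.90% and 1.35% of the summed TPM of the 3 reductases in WT replicates 1 to 3, and 14.3%, 64.3% and 31.8% in KO1 replicates 1 to 3. The lowest KO1 share exceeded the highest WT share. The mean share was 3.72% ± 4.49 over WT libraries against 36.8% ± 25.4 over KO1 libraries (SD, n = 3 each; exact two-sided permutation p = 0.1, the smallest that 3 against 3 can give). A share within a library is not altered by rescaling that library. The difference in mean share was 33.1 percentage points, and 19.4 without KO1 replicate 2.

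The share of Zm00001d013937 was the mirror of this. It was 96.5%, 89.0% and 97.0% in WT replicates 1 to 3 and 81.3%, 34.1% and 66.4% in KO1 replicates 1 to 3. The groups did not overlap (exact two-sided permutation p = 0.1, the smallest possible), and both shares rest on the same libraries and sum with the minor gene to the whole, so they are not separate results. The difference in mean share was -33.6 percentage points, and -20.3 without KO1 replicate 2. Zm00001d032576 held between 1.59% and 4.33% of the pool, with overlapping groups (exact two-sided permutation p = 0.9).

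**Figure D4:**
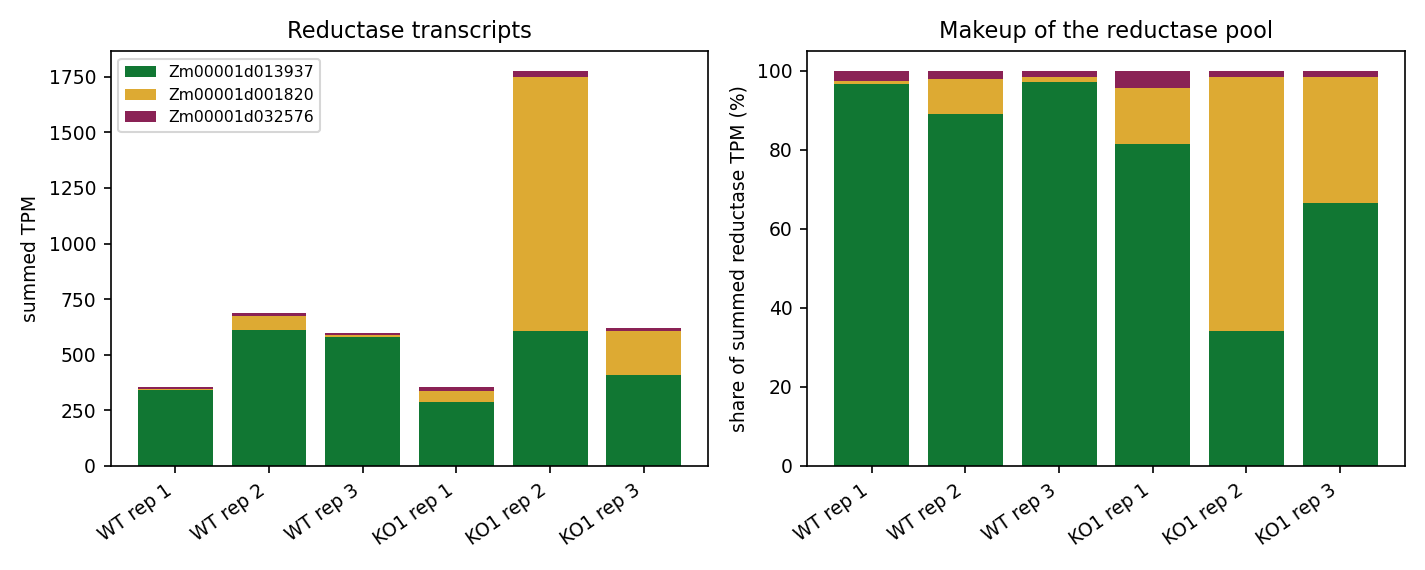
Summed TPM of the 3 reductase genes in each library (left) and the percent share of each gene in that sum (right), with genes by colour. The share of Zm00001d001820 is at most 8.90% in WT and at least 14.3% in KO1, while only KO1 replicate 2 has a sum above the WT range.

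The total reductase level differed between genotypes by less than its spread among KO1 libraries. It was 356, 688 and 599 TPM in WT replicates 1 to 3 and 354, 1778 and 619 TPM in KO1 replicates 1 to 3. KO1 replicate 2 stood far above the other libraries, KO1 replicate 1 lay just under the lowest WT library, and KO1 replicate 3 lay within the WT range. Means were 547 ± 172 TPM in WT and 917 ± 758 TPM in KO1 (SD, n = 3 each; exact two-sided permutation p = 0.7). The direction rested on that library: without KO1 replicate 2 the difference in means turned from 369 to -61.2 TPM. The sum over all 4 genes behaved alike, with means of 839 ± 196 TPM in WT and 1137 ± 780 TPM in KO1 (SD, n = 3 each; exact two-sided permutation p = 0.9) and a difference of -139 TPM without KO1 replicate 2.

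Set against the reductases, oy1 took a smaller place in KO1 libraries on average. The ratio of its TPM to the summed reductase TPM was 0.736, 0.436 and 0.521 in WT replicates 1 to 3 and 0.453, 0.132 and 0.430 in KO1 replicates 1 to 3. The groups overlapped, since KO1 replicate 1 lay above WT replicate 2. The summed TPM includes Zm00001d001820, so this ratio is not a result separate from the level of that gene. The mean ratio was 0.564 ± 0.154 over WT libraries against 0.338 ± 0.179 over KO1 libraries (SD, n = 3 each; exact two-sided permutation p = 0.2), a difference of -0.226, which became -0.123 without KO1 replicate 2.

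Copies of similar sequence can share reads, and how the authors' counting divided such reads among the reductase genes is not given in the sources used here, so the split of the pool carries that uncertainty. None of the 4 genes (0 of 4) had the same values as another row in all 6 libraries, but this does not show that no reads were shared.

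Other transcripts followed the reductase Zm00001d001820 closely across the 6 libraries. Likeness was measured as Pearson's r of log2(TPM + 1) over the 6 libraries, among 11876 other tested genes with a mean of at least 10 TPM, and is given as a description, since the points share genotype and library. For Zm00001d001820, 197 genes reached r of 0.95, against 54 for Zm00001d032576, 16 for oy1 and 10 for Zm00001d013937. How many genes reach this r for a typical tested gene was not determined, so these counts have no baseline. The gene most like Zm00001d001820 was Zm00001d028118 (r = 0.998), with 1.05, 9.84 and 1.92 TPM in WT replicates 1 to 3 and 9.53, 87.4 and 28.8 TPM in KO1 replicates 1 to 3. Chosen for this likeness, it is not a separate result. It was highest in replicate 2 of each genotype, lowest in replicate 1 of each, and did not pass between genotypes (limma adjusted p = 0.073).

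The genes most like the remaining members, chosen in the same way, did not pass between genotypes. Zm00001d012270 was most like Zm00001d032576 (r = 0.995), with 10.2, 13.3 and 10.8 TPM in WT replicates 1 to 3, and KO1 replicates 1 to 3 had 13.3, 18.6 and 10.8 TPM (limma adjusted p = 0.455). Zm00001d031908 was most like Zm00001d013937 (r = 0.975), with 117, 218 and 253 TPM in WT, and KO1 libraries had 70.1, 254 and 147 TPM (limma adjusted p = 0.584). Zm00001d052657 was most like oy1 (r = 0.980), with 63.3, 101 and 88.0 TPM in WT; in KO1 it was listed at 0 in replicate 1 and had 24.8 and 43.3 TPM in replicates 2 and 3 (limma adjusted p = 0.167). The groups overlapped for the first and the second of these genes and did not overlap for the last. Their functions were not analysed here.

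**Figure D5:**
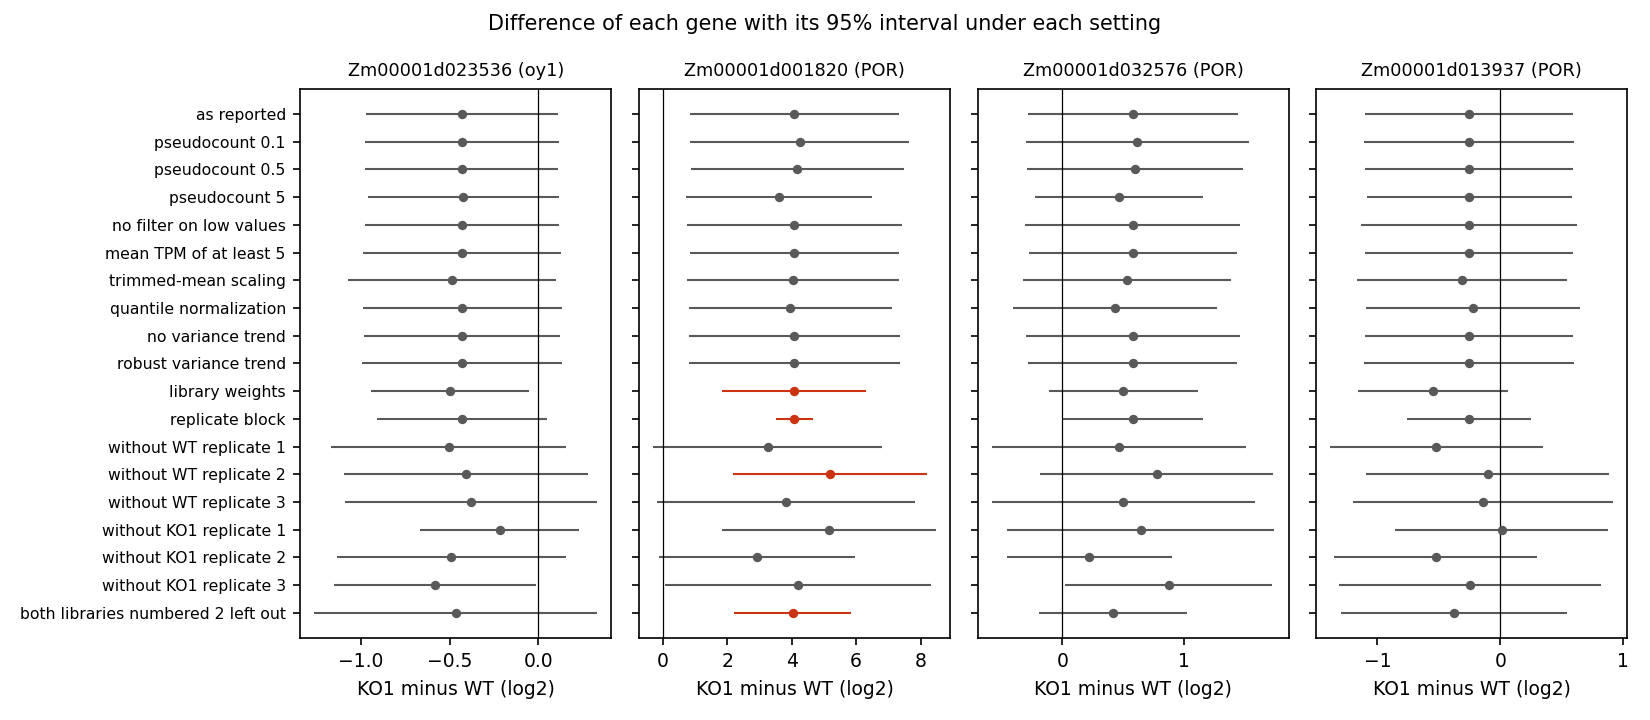
Difference between KO1 and WT on the log2 scale for each of the 4 genes (panels, each with its own horizontal axis), as reported and under each of the 18 other settings, with 95% intervals; red marks a limma adjusted p under 0.05. Only Zm00001d001820 passes in any setting, in 4 of the 18.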

How the data were processed

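The authors deposited 1 table of TPM values for the 6 libraries, rounded to 2 decimals, each column summing to 1000000 within rounding. Per the submitters' processing notes, the tools were RSEM, Bowtie2 and DESeq2; no version or role is stated. The genome build, annotation and read filters were not given in the sources used here. Groups and replicate numbers came from the sample titles.

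KO1 was compared with WT over all 20990 tested genes on the log2(TPM + 1) scale, using limma 3.58.1 under R 4.3.3 with a trended prior variance, genotype as the only term, two-sided tests and Benjamini-Hochberg adjustment over all tested genes (threshold 0.05). Differences on this scale understate the change of low genes. Sums, shares and ratios per library were compared by exact permutation tests. The limma fit was tested on simulated data with known changes and independent noise for each gene. Those data held no differences shared across a library, so the test does not bear on how counts depended on single libraries. Plots used matplotlib 3.10.9.

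The 4 genes, lists and tests were chosen with earlier results of these data known. For each of the 4, the gene with the highest Pearson r was named. Other chlorophyll synthesis genes and cell type markers had been listed by name. 0 of 44320 identifiers matched the 49888 genes of the RefSeq table (Zm-B73-REFERENCE-NAM-5.0), so neither list was analysed.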

Additional observations from a re-analysis of the deposited data

How the results depend on the processing

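Zm00001d023536 and Zm00001d032576 kept their direction and did not pass in any of 18 alternative settings, with differences from -0.58 to -0.22 and from 0.22 to 0.87 on the log2 scale. Zm00001d013937 did not pass in any setting; its difference ran from -0.53 to 0.0088 over fits lacking 1 library, and turned positive only without KO1 replicate 1. Zm00001d001820 was higher in KO1 in all 18 settings and passed in 4 of them. Fits lacking 1 library gave 2.92 to 5.19, with limma adjusted p from 0.045 to 0.223. With library weights it was 4.06 (limma adjusted p = 0.019), where WT replicate 3 took a weight of 8.53, and with both libraries numbered 2 left out it was 4.03 (0.030). With a replicate block it was 4.08 ± 0.22 (SE; limma adjusted p = 0.0059); libraries of the same number correlated at -0.006, 0.086 and 0.016 in their deviations from the group mean, which is below the minimum of 0.1 for pairing, and the block called 2806 genes in all. The count of 3301 called genes was 6838 with library weights and 778 to 2929 over fits lacking 1 library; the cause was not tested. The shares, ratio and sums moved by less than the SD pooled over both groups, which is wide because of KO1; several moved by more than the SD of WT. Without KO1 replicate 2 the KO1 minus WT difference turned to -61.2 TPM for the reductase sum and -139 TPM for the sum of all 4 genes, which was -64.3 TPM with both libraries numbered 2 left out. Without KO1 replicate 1 the difference in the Zm00001d032576 share turned from 0.451 to -0.435 percentage points. The exact tests of these values cannot pass 0.05.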
